A study of Homo sapiens with 6 samples.

Results

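The genes described here are 42 interferon-stimulated and RNA-sensing genes, chosen by name as a check of whether induction of a hairpin RNA raised an interferon response. The rule names the genes and uses no measured value of them, but the list was chosen with earlier results of these data known. All 42 were found in the expression table of 25528 gene symbols. The measurements were RNA-seq of DU145/tet-XISTshRNA cells. DU145 is an established human prostate cancer cell line, and these cells carry a lentiviral vector that expresses a short hairpin RNA (shRNA) against XIST once doxycycline (DOX) is added. Over 7 days, 3 cultures received vehicle (0.1% DMSO) and the other 3 received DOX at 500 ng/ml. All 6 samples carry the same vector and passed through the same drug selection, so vehicle and DOX cells shared any effect of either. DOX cells differed from vehicle cells in both the drug and the hairpin, and their effects cannot be told apart, since cells without the XIST hairpin were not analysed here. The labels do not say whether the cells were 1 clone, and p-values measure the spread between triplicate cultures of 1 line.

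Cells recognise double-stranded or unusually ended RNA as a sign of virus. RIG-I (encoded by DDX58) and MDA5 (IFIH1) bind such RNA in the cytosol and signal through MAVS to IRF3 and IRF7, which switch on IFNB1. Secreted interferon-β binds the IFNAR1/IFNAR2 receptor, and a complex that holds STAT2 and IRF9 then switches on interferon-stimulated genes, among them the sensors themselves. Hairpin RNAs can engage the same sensors, for which reason these genes are a common check in shRNA experiments.

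The complex of STAT2 and IRF9, and the IRF proteins, bind the interferon-stimulated response element, whose core was searched as GAAANNGAAA, or TTTCNNTTTC on the other strand. RefSeq windows running from 250 bases before to 50 bases after a gene's start (GRCh38.p14) were found for 32 of the members, and 21 of these (65.6%) held the motif, against 4.38% of all 27305 symbols with such a window. A match describes letters and is not evidence of binding. The promoters of ISG15, at chr1:1013247-1013496, and IFIT1, at chr10:89392373-89392622, both on the plus strand, are shown because both genes are widely used readouts of the response. Each carries 2 matches, in capitals, which share a GAAA in ISG15 and are separated by a short spacer in IFIT1.
ISG15: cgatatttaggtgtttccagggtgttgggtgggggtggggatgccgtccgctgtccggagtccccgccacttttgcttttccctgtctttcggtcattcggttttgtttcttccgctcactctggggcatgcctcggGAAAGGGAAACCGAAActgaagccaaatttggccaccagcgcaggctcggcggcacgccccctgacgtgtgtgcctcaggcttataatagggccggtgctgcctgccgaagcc
IFIT1: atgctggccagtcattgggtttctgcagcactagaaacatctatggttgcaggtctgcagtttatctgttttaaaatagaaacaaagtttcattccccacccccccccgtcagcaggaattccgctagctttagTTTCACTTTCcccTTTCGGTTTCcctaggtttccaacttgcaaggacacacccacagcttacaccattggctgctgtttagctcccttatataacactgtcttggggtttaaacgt

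Windows of 30 bases around 1 match of each of 8 further members are shown because these genes span the sensors, the effectors and the member with the largest decrease. They lie on the minus strand at chr2:37156967-37156996 for EIF2AK2, chr2:162318686-162318715 for IFIH1, chr11:320876-320905 for IFITM3 and chr1:27672288-27672317 for IFI6. On the plus strand they lie at chr21:41420559-41420588 for MX1, chr12:112938452-112938481 for OAS3, chr2:6877622-6877651 for RSAD2 and chr3:122680800-122680829 for PARP14. The match starts 11 bases after the start of MX1 and between 6 (EIF2AK2) and 145 (RSAD2) bases before the start in the others. Each is written on the strand of its gene, with the match in capitals.
EIF2AK2: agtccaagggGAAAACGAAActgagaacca
IFIH1: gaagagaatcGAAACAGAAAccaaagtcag
MX1: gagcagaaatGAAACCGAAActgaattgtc
OAS3: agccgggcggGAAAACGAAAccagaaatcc
IFITM3: aaactgttgaGAAACCGAAActactgggga
IFI6: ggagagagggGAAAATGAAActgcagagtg
RSAD2: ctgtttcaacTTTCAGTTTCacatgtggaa
PARP14: tccaggaaacGAAAGCGAAAgagtcaaagt

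No window was found for DHX58, IFNAR2, IRF3, IRF7, IFIT2, IFITM2, OAS2, OASL, MX2 and USP18. Among the 11 members with a window and no match were ADAR, DDX58, MAVS, IRF1, IRF9, STAT2 and IFNB1.

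Levels are given as scaled TPM. TPM is a transcript's share of all transcripts, counted per length, and its total is the same in every sample. In these libraries 5 small RNAs made by RNA polymerase III held 67.5% to 82.6% of that total, so each sample was divided by the median of its ratios to the mean of all samples. Between 5453928 and 64575165 reads per sample were recovered from the files, with vehicle replicate 3 the shallowest and DOX replicate 1 the deepest. XIST was listed at 0 in all 6 samples, as was EIF4A1, a translation factor of all cells, so a listed 0 can be a failed estimate and the silencing of the target cannot be checked here. The epithelial genes KRT8, KRT18, KRT19, EPCAM and CDH1 and the intermediate filament gene VIM were present in all samples. KRT8 (65.5 ± 12.6 scaled TPM with vehicle and 96.8 ± 18.4 with DOX, SD, n = 3) and KRT19 (57.7 ± 11.4 and 88.6 ± 20.9) were not called by limma (adjusted p = 0.281 for both) but were called higher by voom with a replicate block (adjusted p = 0.0108 for both), whereas EPCAM had a log2 fold change of -0.32 and VIM of 0.26, neither called by either fit. Of 6 leukocyte genes, CD68 (mean 14.5 scaled TPM with vehicle and 14.4 with DOX) was the single one above the minimum. Their summed level ranged from 14.2 to 15.9 with vehicle and from 11.7 to 18.5 with DOX, and CD3E was at 0.

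No interferon response gene was called higher with DOX, and the test used called no gene at all. Of the 42 members, 30 had a mean of at least 1 scaled TPM and were tested, and 12 were below that level. By limma with Benjamini-Hochberg adjustment over 11630 genes, 0 of 30 were higher and 0 of 30 were lower at an adjusted p under 0.05 and a fold change over 1.5. The same held for all genes, with 0% called higher and 0% called lower, so the result is not particular to the members. For XIST-silenced DU-145 cells the paper reports both down- and upregulated genes, from DESeq2 on counts. That is a different fit, and its calls were not used here. At an unadjusted p under 0.05 and the same fold, 0 members were called in either direction, against 1.19% of all genes higher and 1.14% lower. Without the fold threshold, 1 member, PARP14, had an unadjusted p under 0.05 (3.33% of those tested), against 15.8% of all genes. Voom on recovered reads with the replicate number as a block called 0 members in either direction, against 1.66% of all genes higher and 1.86% lower. In bulk RNA, a change in every cell and a larger change in fewer cells cannot be told apart.

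All 30 log2 fold changes lay between -0.40 (PARP14) and 0.37 (IRF3), with 12 above and 18 below 0. Their median was -0.058, beside 0.018 for all genes tested. On TPM as deposited, where the median of all genes itself moved to -0.35, all 30 were negative with a median of -0.41, which is -0.061 relative to that shift, and 11 lay above and 19 below the median of all genes. In that fit 0 members were called, against 0.0257% of all genes higher and 2.98% lower. The change was under 1.2-fold for 25 of 30 members, against 70.1% of all genes. By limma the upper 95% limit was under 1.5-fold for 23 members (76.7%, against 81.0% of all genes). It was under 2-fold for all 30, as for 98.2% of all genes, the highest among the members being 1.88-fold for ISG15. By voom on recovered reads, which does not compress low genes with a pseudocount of 1, the upper limit was under 2-fold for 27 members and reached 2.28-fold for ISG15, 2.01-fold for IFI35 and 2.00-fold for IRF3. With the replicate block it was under 2-fold for all 30 (1.80-fold for ISG15). The share of all genes under 2-fold was not taken for either voom fit. A rise of 2-fold thus lay within an interval of 1 of these fits for ISG15, IFI35 and IRF3.

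**Figure D1:**
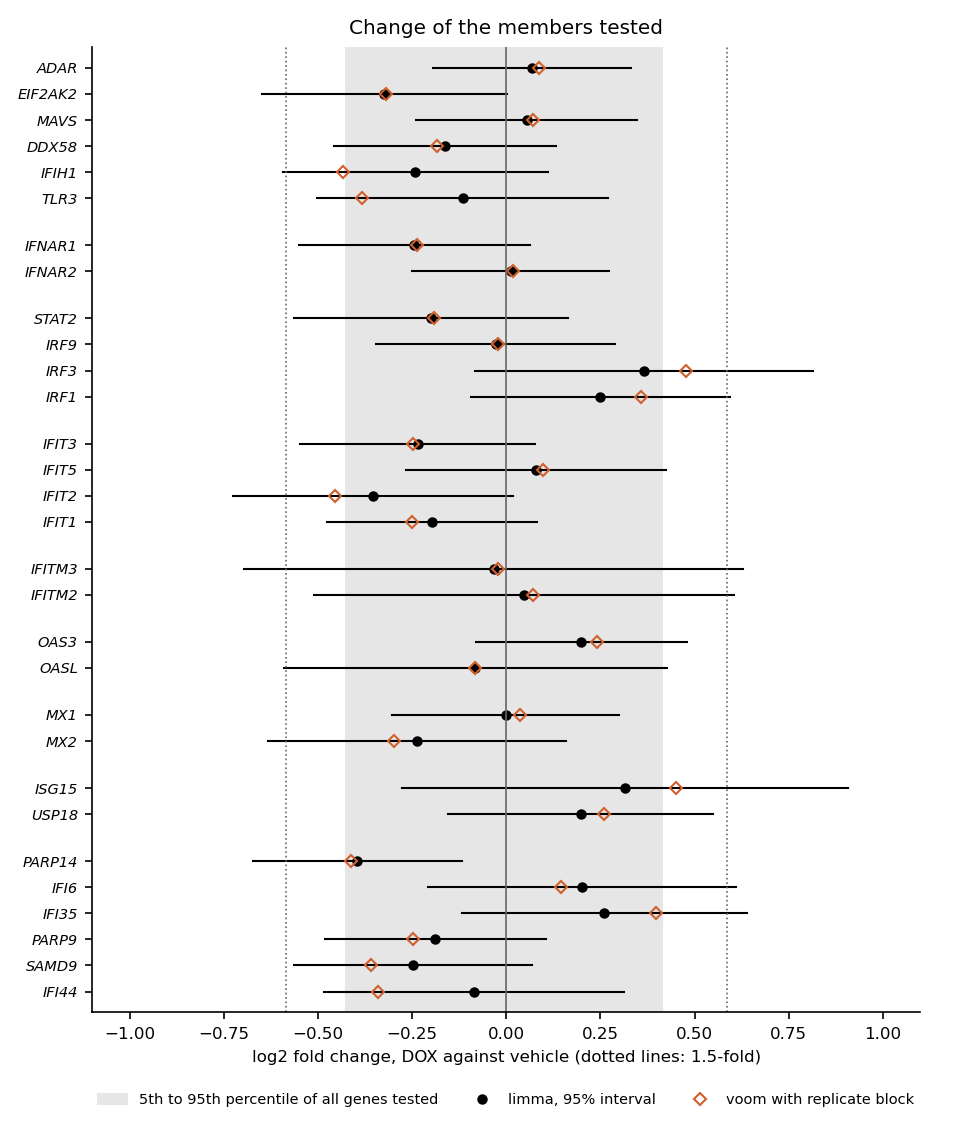
The log2 fold change of DOX against vehicle is shown for the 30 members tested, in the order of their roles, as a black point with its 95% interval from limma (n = 3 per group) and as an open diamond from voom with a replicate block. Every black point lies between the dotted lines of 1.5-fold, and the grey band runs from the 5th to the 95th percentile of all genes tested (-0.43 to 0.41).

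The sensors were expressed at widely different levels, and none passed the limma test, which no gene passed. ADAR, which edits adenosine to inosine in double-stranded RNA and limits sensing of the cell's own RNA, was the member with the highest level. In order of replicate number, here and below, it measured 76.7, 75.3 and 85.2 scaled TPM with vehicle and 86.5, 77.4 and 84.7 with DOX, a log2 fold change of 0.068 ± 0.12 (SE, limma, adjusted p = 0.778). The groups overlapped, and its upper limit was 1.26-fold.

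EIF2AK2 encodes PKR, the kinase that stops translation when it binds double-stranded RNA (GRCh38 chr2:37099210-37157522, minus strand). It measured 27.9, 31.0 and 29.3 scaled TPM with vehicle and 19.6, 28.2 and 22.7 with DOX. DOX replicate 2 lay inside the vehicle range and the other DOX samples lay below it. The log2 fold change was -0.32 ± 0.15 (SE, limma, unadjusted p = 0.0505, adjusted p = 0.315). It was -0.46 without DOX replicate 2, -0.21 without DOX replicate 1 and -0.080 after the correction for GC content and length described below.

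RIG-I, encoded by DDX58 (named RIGI in current annotation), senses RNA with a 5′ triphosphate. It measured 4.41, 4.94 and 5.43 scaled TPM with vehicle and 3.83, 4.34 and 4.72 with DOX, so the groups overlapped at a log2 fold change of -0.16 ± 0.13. In GENCODE 44, 96.6% of its 50-base windows also occur in other annotated loci, nearly all in 1 unnamed locus, so its reads could have been split. MDA5, encoded by IFIH1, senses long double-stranded RNA. It measured 3.16, 3.53 and 2.37 with vehicle and 1.91, 2.66 and 2.60 with DOX, and the groups overlapped (log2 fold change -0.24 ± 0.16, SE, limma, adjusted p = 0.437).

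TLR3, the endosomal sensor of double-stranded RNA, was close to the minimum. Its scaled TPM was 1.25, 1.67 and 0.905 with vehicle and 0.986, 0.807 and 1.5 with DOX, with the groups interleaved. MAVS is the mitochondrial adaptor on which RIG-I and MDA5 converge. It was at 8.76, 7.88 and 7.90 with vehicle and 9.43, 7.35 and 8.92 with DOX (log2 fold change 0.054 ± 0.13). DOX samples were both the highest and the lowest of the 6. DHX58, encoding LGP2, a helicase that modulates MDA5, was below the minimum at 0.826, 0.276 and 0 scaled TPM with vehicle and 0.586, 0.358 and 0.631 with DOX. Its 0 stood in vehicle replicate 3, where 3 reads, the number that a count of 0 allows, would be 0.161 scaled TPM, and an exact two-sided permutation test gave p = 0.6.

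IFNB1, the interferon that the sensors switch on (chr9:21077104-21077942, minus strand), was at the limit of detection. It had 0 reads in all 3 vehicle samples and in DOX replicates 1 and 3, and 1 read in DOX replicate 2. A count of 0 allows up to 0.207, 0.178 and 0.657 scaled TPM in the vehicle samples and up to 0.0521 in DOX replicate 1, the deepest library. These limits cover counting error alone.

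Both chains of its receptor were expressed. IFNAR1 measured 26.0, 33.0 and 30.8 scaled TPM with vehicle and 22.0, 26.4 and 26.8 with DOX, and only vehicle replicate 1 lay within the DOX range (log2 fold change -0.24 ± 0.14, SE, limma, adjusted p = 0.381). IFNAR2 measured 14.0, 15.1 and 14.5 with vehicle and 13.6, 15.0 and 15.5 with DOX (log2 fold change 0.011 ± 0.12). Its samples lay close together and in mixed order. Of its 50-base windows, 47.5% also occur in other loci, chiefly the readthrough gene IFNAR2-IL10RB.

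The transcription factors showed no shared direction, with 2 log2 fold changes above and 2 below 0 among the 4 tested. On deposited TPM all 4 were negative, but the median of all genes was itself -0.35 there. STAT2, the signalling subunit of the interferon-activated complex, measured 14.1, 13.4 and 14.0 scaled TPM with vehicle and 15.0, 9.20 and 12.2 with DOX. The DOX samples spread on both sides of the narrow vehicle range (log2 fold change -0.20 ± 0.16, -0.031 without DOX replicate 2 and -0.36 without DOX replicate 1). IRF9, the DNA-binding part of that complex, measured 5.93, 6.80 and 6.63 with vehicle and 6.72, 5.17 and 7.18 with DOX (log2 fold change -0.028 ± 0.14). Here too DOX samples were the lowest and the highest. Of its 50-base windows, 92.8% are shared with 1 other, unnamed locus.

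IRF3, a factor activated downstream of the sensors, had the largest increase among the members, 0.37 ± 0.20 on the log2 scale (SE, limma, adjusted p = 0.377). It measured 6.04, 4.34 and 3.84 scaled TPM with vehicle and 7.72, 7.08 and 4.50 with DOX. DOX replicate 3 lay within the vehicle range, and the log2 fold change was 0.13 after correction for GC content and length. On TPM as deposited it was -0.0098, where the median of all genes was -0.35. IRF3 exons overlap those of BCL2L12 on the opposite strand, and the strand setting of the counting is not given. IRF3 is activated through phosphorylation, which RNA levels do not report.

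IRF1, itself induced by interferons, measured 2.46, 2.03 and 2.25 scaled TPM with vehicle and 3.43, 2.15 and 3.09 with DOX. DOX replicate 2 lay within the vehicle range and the other DOX samples above it (log2 fold change 0.25 ± 0.16, SE, limma, adjusted p = 0.417). On deposited TPM the value was -0.076, beside a median of -0.35 for all genes. IRF7, the factor that amplifies the response and is itself strongly induced by interferon, was below the minimum. It stood at 1.04, 0.549 and 0.437 with vehicle and 1.36, 0.522 and 0.726 with DOX, with the groups overlapping (exact two-sided permutation p = 0.6).

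**Figure D2:**
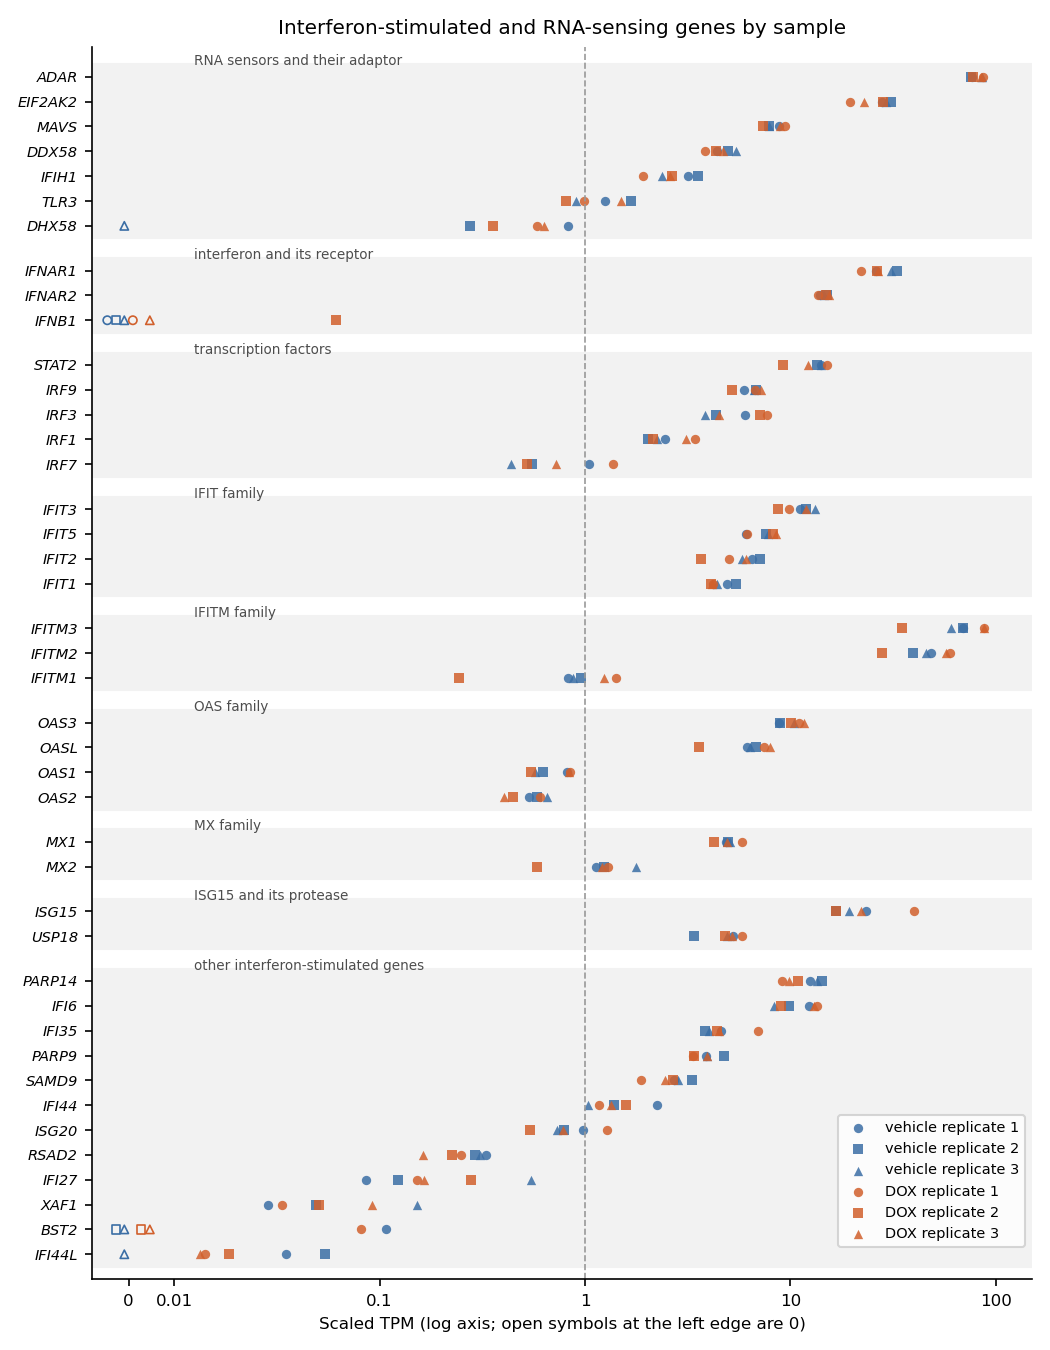
Scaled TPM of all 42 members is plotted for each sample on a log axis, grouped by role, with vehicle in blue, DOX in orange and the replicate number as the symbol. Members left of the dashed line at 1 on average were not tested, open symbols mark samples at 0, and the ranges of the groups overlap for all members but IFIT1, PARP14, SAMD9 and RSAD2.

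The IFIT genes, whose proteins bind foreign RNA ends and are among the most strongly induced interferon targets, were expressed in all samples. None passed the limma test, which no gene passed. Of the 4, 3 had negative log2 fold changes and IFIT5 a positive one, 0.078. On deposited TPM IFIT5 was at -0.31, beside a median of -0.35 for all genes. IFIT1 measured 4.93, 5.45 and 4.38 scaled TPM with vehicle and 4.18, 4.11 and 4.15 with DOX. All DOX values were lower than all vehicle values, at a log2 fold change of -0.20 ± 0.12 (SE, limma, adjusted p = 0.429). Its upper limit was 1.06-fold.

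IFIT2 measured 6.48, 7.14 and 5.83 scaled TPM with vehicle and 5.04, 3.66 and 6.08 with DOX. DOX replicate 3 lay within the vehicle range, and DOX replicate 2 was the lowest sample. Its log2 fold change was -0.35 ± 0.17 (SE, limma, adjusted p = 0.323), and -0.19 without DOX replicate 2. IFIT3 measured 11.1, 11.9 and 13.2 with vehicle and 9.85, 8.75 and 11.8 with DOX (log2 fold change -0.24 ± 0.14). IFIT5 measured 6.06, 7.57 and 7.78 with vehicle and 6.12, 8.20 and 8.54 with DOX. In both genes the groups overlapped.

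The IFITM proteins block fusion of enveloped viruses, and IFITM3 and IFITM2 were the most highly expressed effectors. IFITM3 measured 69.1, 69.1 and 60.6 scaled TPM with vehicle and 87.9, 35.0 and 87.1 with DOX. IFITM2 measured 48.2, 39.4 and 45.6 with vehicle and 59.7, 28.0 and 57.2 with DOX. In both genes DOX replicates 1 and 3 lay above all vehicle samples and DOX replicate 2 lay below all of them. The log2 fold changes were -0.034 ± 0.30 for IFITM3 and 0.048 ± 0.25 for IFITM2. Without DOX replicate 2 they were 0.40 (limma, adjusted p = 0.123) and 0.39 (limma, adjusted p = 0.138), so the direction for IFITM3 rests on 1 library. IFITM1, below the minimum with 3 to 61 reads per sample, was also lowest in DOX replicate 2, at 0.244 scaled TPM beside 0.829 to 1.41 in the other samples. The 3 genes share sequence, with 12.0% (IFITM2), 20.8% (IFITM3) and 55.1% (IFITM1) of 50-base windows found in another locus, so their values are not independent of how reads were divided.

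The OAS enzymes make the second messenger that activates RNase L when double-stranded RNA is present. OAS3 measured 8.81, 8.93 and 10.4 scaled TPM with vehicle and 11.0, 10.0 and 11.7 with DOX. Only vehicle replicate 3 reached into the DOX range, and the log2 fold change was 0.20 ± 0.13 (SE, limma, adjusted p = 0.425). On deposited TPM it was -0.21, above the median of -0.35 for all genes in that fit. OASL, an OAS-like protein that enhances RIG-I signalling, measured 6.12, 6.82 and 6.38 with vehicle and 7.41, 3.58 and 7.98 with DOX. It showed the pattern of the IFITM genes, with DOX replicate 2 below and the other DOX samples above all vehicle samples. Its log2 fold change was -0.083 ± 0.23, and 0.23 without DOX replicate 2. OAS1 and OAS2 were below the minimum, at 0.544 to 0.846 and 0.403 to 0.656 scaled TPM over the 6 samples, and their groups overlapped (exact two-sided permutation p = 0.8 and 0.3).

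MX1 and MX2 encode dynamin-like GTPases that trap viral nucleocapsids, and MX1 is among the most responsive interferon targets in epithelial cells. MX1 measured 4.86, 4.97 and 5.06 scaled TPM with vehicle and 5.83, 4.24 and 4.90 with DOX. Its log2 fold change was -0.0023 ± 0.14 with a 95% interval of 0.810-fold to 1.23-fold. MX1 exons overlap those of TMPRSS2 on the opposite strand, but TMPRSS2 had 5 reads in all. MX2 measured 1.13, 1.24 and 1.77 with vehicle and 1.30, 0.584 and 1.21 with DOX (log2 fold change -0.24 ± 0.18, and -0.069 without DOX replicate 2). The groups overlapped in both genes.

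ISG15 is a ubiquitin-like protein attached to other proteins during the response, and USP18 removes it and also dampens receptor signalling. ISG15 (chr1:1001138-1014540, plus strand) measured 23.4, 16.7 and 19.2 scaled TPM with vehicle and 40.2, 16.8 and 22.1 with DOX. DOX replicate 1 stood apart, and the other DOX samples lay within the vehicle range. The log2 fold change was 0.32 ± 0.27 (SE, limma, adjusted p = 0.541), and it ranged from -0.025 without DOX replicate 1 to 0.58 without DOX replicate 2. It was 0.47 by voom and -0.0034 after correction for GC content and length. On deposited TPM it was -0.11, where the median of all genes was -0.35. USP18 measured 5.26, 3.40 and 4.92 with vehicle and 5.83, 4.81 and 5.19 with DOX (log2 fold change 0.20 ± 0.16). On deposited TPM USP18 was at -0.18, again beside -0.35 for the median of all genes. Its groups overlapped, and 52.9% of its 50-base windows are shared with other loci, among them USP41.

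Of the 12 other interferon-stimulated genes, 6 were tested. PARP14, a mono-ADP-ribosyltransferase of the response (chr3:122680839-122730840, plus strand), had the largest decrease of all members. It measured 12.4, 14.3 and 13.4 scaled TPM with vehicle and 9.11, 10.8 and 9.87 with DOX, that is 13.4 ± 0.969 and 9.94 ± 0.873 (SD, n = 3). The groups did not overlap, with all DOX values lower. The log2 fold change was -0.40 ± 0.12 (SE, limma, unadjusted p = 0.00974, adjusted p = 0.281). Voom on recovered reads with a replicate block gave -0.41 at an adjusted p of 0.0202, the one member under 0.05 in that fit, where 6.26% of all genes were higher and 6.99% lower at that threshold. The change stayed under 1.5-fold and was -0.23 after correction for GC content and length.

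PARP9, which acts with DTX3L in the same response, measured 3.88, 4.78 and 3.92 scaled TPM with vehicle and 3.34, 3.39 and 3.92 with DOX (log2 fold change -0.19 ± 0.13). SAMD9, which restricts poxviruses and translation, measured 2.70, 3.32 and 2.82 with vehicle and 1.88, 2.67 and 2.45 with DOX. SAMD9 did not overlap between the groups, although by a narrow gap, and its log2 fold change was -0.25 ± 0.14 (SE, limma, adjusted p = 0.387) but 0.052 after the GC correction. IFI44 measured 2.23, 1.38 and 1.04 with vehicle and 1.17, 1.59 and 1.33 with DOX, and the DOX samples lay inside the vehicle range.

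IFI6, a small protein of the endoplasmic reticulum and mitochondria and a standard member of interferon scores, measured 12.3, 9.81 and 8.30 scaled TPM with vehicle and 13.5, 8.96 and 13.1 with DOX (log2 fold change 0.20 ± 0.18). On deposited TPM IFI6 was at -0.21, beside a median of -0.35 for all genes. IFI35 measured 4.62, 3.84 and 4.02 with vehicle and 6.97, 4.38 and 4.47 with DOX. In IFI35 it was again DOX replicate 1 that stood above the rest (log2 fold change 0.26 ± 0.17). ISG20, an RNA exonuclease, was below the minimum at 0.981, 0.788 and 0.727 with vehicle and 1.28, 0.540 and 0.784 with DOX.

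RSAD2 encodes viperin, which makes a chain-terminating nucleotide and is nearly silent without interferon in most cells. It stood at 0.328, 0.293 and 0.309 scaled TPM with vehicle and 0.248, 0.226 and 0.163 with DOX, from 8 to 81 reads per sample. All DOX values were lower than all vehicle values, with an exact two-sided permutation p of 0.1, the smallest that 3 against 3 samples allow. The remaining members, IFI27, IFI44L, XAF1 and BST2, never exceeded 0.547 scaled TPM, and their groups overlapped. BST2, which encodes tetherin, had 2 reads with vehicle and 6 with DOX in all, IFI44L had 14 and 13, IFI27 had 14 and 38, and XAF1 had 14 and 30, from groups whose total depth differed. IFI27, IFI44L and BST2 hold the response motif, and all 4 genes are known for large inductions by interferon.

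Over the 30 members tested, 0 had all DOX samples above all vehicle samples, against 10.9% of all genes. In the other direction, 3 members (IFIT1, PARP14 and SAMD9, 10.0%) had all DOX samples below all vehicle samples, against 9.13% of all genes, a share near the background. Compared within pairs of the same replicate number, DOX was above vehicle in all 3 pairs for 7 members (23.3%, against 27% of all genes), namely IRF1, IRF3, IFIT5, OAS3, ISG15, USP18 and IFI35. It was below vehicle in all 3 pairs for 8 members (26.7%, against 24.5% of all genes), namely DDX58, EIF2AK2, IFNAR1, IFIT1, IFIT3, PARP9, PARP14 and SAMD9. Both shares lay near those of all genes. In voom with the replicate block the unadjusted 95% interval lay above no change for 4 members (IRF1, IRF3, OAS3 and ISG15). It lay below no change for 6 (IFIH1, EIF2AK2, IFNAR1, IFIT2, PARP14 and SAMD9). In both directions together, PARP14 alone had an adjusted p under 0.05 in that fit, where 6.26% of all genes were higher and 6.99% lower. The share of all genes with such an unadjusted interval was not taken. The counts of 4 and 6 thus cannot be set against a background or read as a result about these members. Levels of the members that hold the response motif ran from a mean of 0.0225 scaled TPM (IFI44L) to 68.1 (IFITM3). Among the 15 tested members with the motif the median log2 fold change was -0.12, with 4 above and 11 below 0. Among the 8 tested members with a window and no motif it was 0.013, with 4 above and 4 below 0. On deposited TPM every member of both sets was negative, beside a median of -0.35 for all genes. The sets were not matched for GC content, with which the change went as described below. They were not compared after the GC correction.

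The direction of change among the members went with their GC content. Across the 30 members, GC content of the exons correlated with the log2 fold change at a Spearman rho of 0.65 and a Pearson r of 0.70, and across 11165 genes at 0.69 and 0.66. These are correlations across genes of the same libraries, and genes are not independent replicates. Of the 13 members under 45% GC, 1 (IFIT5) had a positive log2 fold change, and of the 6 members over 55%, 5 had one. All genes showed the same course, from a median of -0.24 under 40% GC to 0.24 over 55%. After each sample was corrected for GC content and length, rho over the members was -0.16, 14 members were positive and 16 negative, their range was -0.27 to 0.27, and their median was -0.019 beside 0.021 for all genes. The part of GC content in the change of any single member was not tested further.

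**Figure D3:**
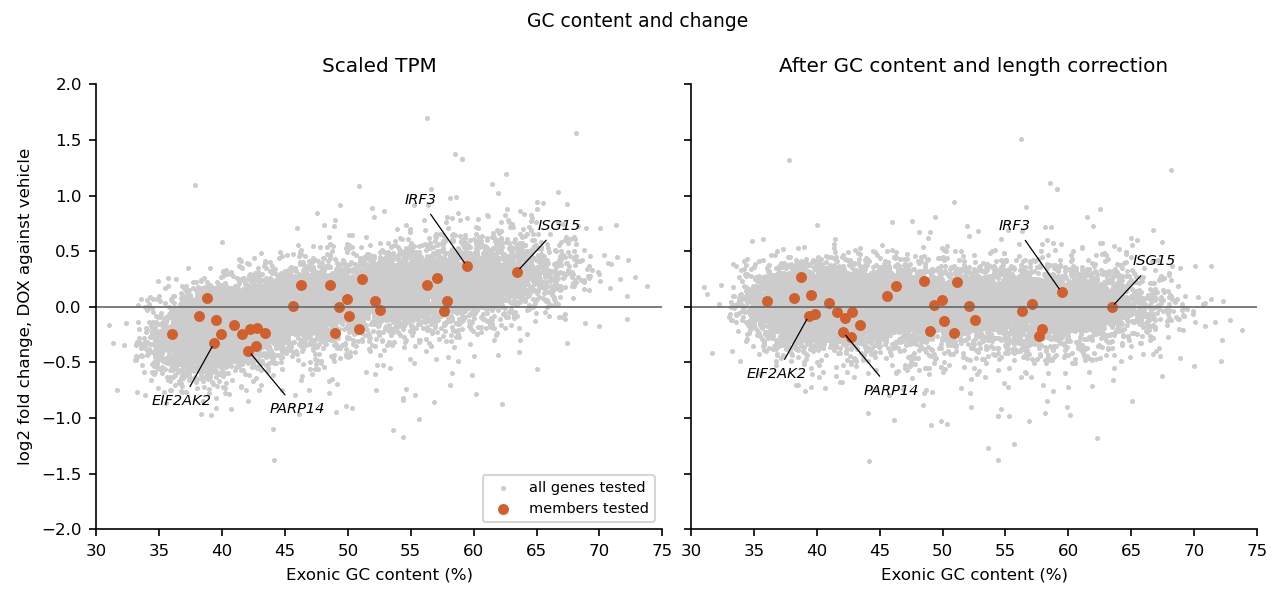
Exonic GC content (%) is plotted against the log2 fold change of DOX against vehicle for 11165 genes (grey) and the 30 members (orange), before (left) and after (right) the correction for GC content and length. The left cloud rises from low to high GC with EIF2AK2 and PARP14 low and IRF3 and ISG15 high, the right cloud is level, and 1 gene lies outside each panel.

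Samples within the DOX group differed among the members. DOX replicate 2 was the lowest of the 6 samples for 12 of 30 members and the highest for 0, whereas over all genes it was lowest for 15.2% and highest for 16.1%. Those 12 included STAT2, IRF9, IFIT1, IFIT2, IFIT3, IFITM2, IFITM3, OASL, MX1 and MX2. DOX replicate 1 was the highest sample for 12 members and the lowest for 8, against 30.8% and 32.1% of all genes. The median difference between DOX and vehicle samples of the same number was 0.092 on the log2 scale for replicate 1, -0.21 for replicate 2 and 0.092 for replicate 3, beside 0.015, 0.0050 and 0.023 for all genes tested. Without DOX replicate 2 the median log2 fold change of the members was 0.011, and 0 were called higher by limma. What set DOX replicate 2 apart was not tested.

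**Figure D4:**
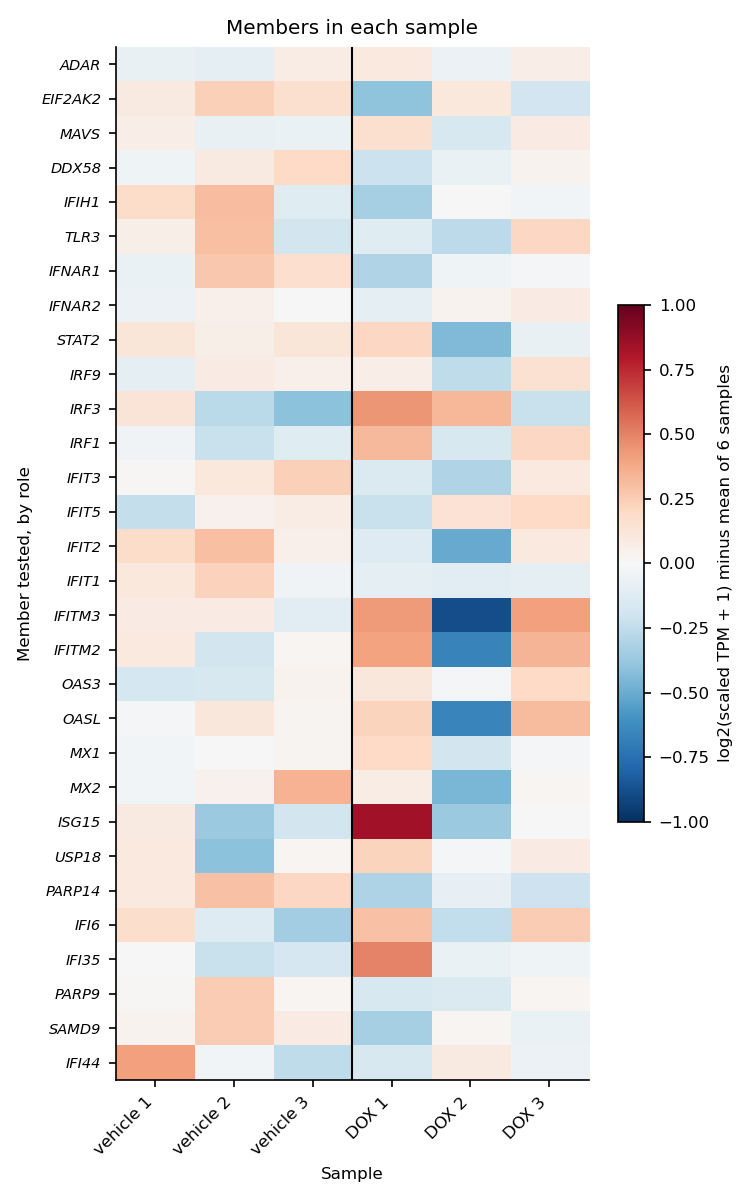
Each cell gives a member's log2(scaled TPM + 1) in 1 sample minus its mean over the 6 samples, with the 30 members tested in rows by role and samples in columns, vehicle left of the black line. The DOX replicate 2 column is blue for IFITM3, IFITM2, OASL, IFIT2, MX2 and STAT2, and ISG15 in DOX replicate 1 is the darkest red.

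Other genes of the pathway, 69 in 4 lists, were read in the same fit. Of these, 50 were tested, and limma called 0 higher and 0 lower, with 6 (12.0%) at an unadjusted p under 0.05, against 15.8% of all genes. The signalling proteins below the sensors and receptor, 11 of 11 tested, had a median log2 fold change of 0.037. The largest changes were in TICAM1 (0.45 ± 0.25), the adaptor of TLR3, and AZI2 (-0.35 ± 0.15), a regulator of TBK1. After the correction for GC content and length they were 0.16 and -0.10. Voom with the replicate block gave AZI2 an adjusted p of 0.0444, not past the 1.5-fold threshold. Of 12 other interferons and receptors, 5 were tested, and IFNA1, IFNA2, IFNK, IFNL2, IFNL3 and IFNG were listed at 0 in all samples. As EIF4A1 shows, a listed 0 can be a failed estimate. IFNE, an interferon of epithelia that is not induced by viral RNA, was present at 3.17 ± 0.258 scaled TPM with vehicle and 2.09 ± 1.12 with DOX (SD, n = 3), a log2 fold change of -0.49 ± 0.22 (SE, limma, adjusted p = 0.315). IFNGR1, a chain of the interferon-γ receptor, followed at -0.25 ± 0.14.

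Among 38 further interferon-stimulated genes, 27 were tested, with a median log2 fold change of -0.074. DDX60, a helicase that assists RIG-I, measured 3.64 ± 0.605 scaled TPM with vehicle and 2.20 ± 0.398 with DOX (log2 fold change -0.54 ± 0.15, SE, limma, adjusted p = 0.281). Voom with the replicate block called it lower at an adjusted p of 0.0108, and called its paralog DDX60L lower at 0.0157, the 2 calls among the 50 genes in that fit (4.0%, against 1.86% of all genes called lower), while 0 were called higher. Without the fold threshold, 1 of the 50 was higher and 5 were lower at an adjusted p under 0.05 in that fit. Of all genes, 6.26% were higher and 6.99% lower at that threshold. After the GC correction the values were -0.26 and -0.18. LY6E, at 31.0 ± 6.79 and 45.5 ± 16.5 scaled TPM, had the largest increase of that list (0.50 ± 0.24, SE, limma, adjusted p = 0.328) and 0.20 after the correction. Voom with the replicate block gave it 0.53 at an adjusted p of 0.0177, not past the 1.5-fold threshold. The negative regulators, 7 of 8 tested, had a median of -0.20. The largest change was in CYLD (-0.38 ± 0.13), a deubiquitinase that restrains RIG-I signalling, and then in RNF125 (-0.30 ± 0.17), a ubiquitin ligase that targets RIG-I. After the GC correction both were at -0.11. Voom with the replicate block gave CYLD an adjusted p of 0.0218, not past the 1.5-fold threshold.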

How the data were processed

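RNA was measured in 3 vehicle and 3 DOX samples of DU145/tet-XISTshRNA cells, grouped and numbered from the sample titles. Per the study's methods, stranded mRNA libraries were aligned with STAR to GRCh38. The counting tool, its strand setting and tool versions are not given in the sources used here. The authors deposited TPM for 25528 gene symbols, each sample summing to 1000000, of which 6277 were at 0 throughout. The authors also deposited DESeq2 output, of which only the mean normalized count over all samples was used, as a signal to recover reads. Its fold changes and p-values were not used. Of values up to 50 reads, 98.0% came out within 0.05 of a whole read, against 10.0% by chance.

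TPM was divided by median-of-ratios factors, and genes with a mean scaled TPM of at least 1 (11630) were tested with limma (version 3.58.1, R 4.3.3; trend, no block) on log2(scaled TPM + 1). This scale understates changes of low genes. p-values were Benjamini-Hochberg adjusted, and calls needed an adjusted p under 0.05 and a fold over 1.5. Members below the minimum with reads in at least 4 samples were compared by an exact permutation test. Voom used recovered reads and TMM scaling. Both fits were also run on simulated reads with known changes and no trend with GC content. That run does not measure what the fits could detect in these libraries. GC content, length and shared sequence came from GENCODE 44, matched for 90.3% of symbols, and promoters from RefSeq. Python 3.11.15, pandas 2.3.3, SciPy 1.17.1 and matplotlib 3.10.9 were used.

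Vehicle and DOX samples share replicate numbers. Deviations of same-numbered samples correlated at 0.56, 0.26 and 0.19, and those of differently numbered samples at -0.42 to 0.22. The highest of the latter, vehicle replicate 2 with DOX replicate 3, lay above the same-numbered value of replicate 3. The pairing rests on these correlations alone, and they do not set replicate 3 apart as a pair. Blocked values are given where they change a call. Alternatives were TPM as deposited, a pseudocount of 0.1, no filter, the block, leaving out each sample, voom, and the GC and length correction. The members, their roles and the pathway lists were chosen with earlier results of these data known. All sensors, interferon genes and transcription factors, all tested members of the named families, the 8 highest of the others, and the largest changes in each pathway list are given by value.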

Additional observations from a re-analysis of the deposited data

How the results depend on the processing

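No member was called higher or lower in the main comparison or in any of the 14 alternatives (limma or voom), and of 420 member values under alternatives 370 kept their direction and 50, in 20 members, changed sign without passing the threshold. The calls over all genes were 0 higher and 0 lower by limma, 3 and 348 on TPM as deposited, 0 and 1 by voom, and 193 and 216 by voom with the replicate block. Leaving out 1 sample gave 0 to 13 higher, the 13 without vehicle replicate 1, and 0 to 1 lower. The median of the members was -0.41 on TPM as deposited, ranged from -0.15 (without DOX replicate 3) to 0.011 (without DOX replicate 2) when 1 sample was left out, and was -0.054 by voom with the replicate block. The block in limma changed no member's call, and PARP14 had an adjusted p of 0.0617 with it.

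On TPM as deposited the division by median-of-ratios factors was left out, and the median of all genes was -0.35. There the sign turned for MAVS (-0.35), ADAR (-0.37), IFNAR2 (-0.41), IRF1 (-0.076), IRF3 (-0.0098), IFIT5 (-0.31), IFITM2 (-0.39), OAS3 (-0.21), ISG15 (-0.11), USP18 (-0.18), IFI6 (-0.21) and IFI35 (-0.11). With the GC content and length correction, with or without the replicate block, it turned for DDX58 (0.037), TLR3 (0.10), IFITM2 (-0.20), MX1 (0.020), ISG15 (-0.0034), IFI6 (-0.035), IFI44 (0.080) and SAMD9 (0.052). By voom it turned for IRF9 (0.0002) and MX1 (0.045), and by voom with the block for MX1 (0.036). When 1 sample was left out, values that changed sign ranged from -0.25 to 0.0049 for TLR3, -0.011 to 0.15 for MAVS, -0.026 to 0.064 for IFNAR2, -0.11 to 0.094 for IRF9, -0.021 to 0.21 for IFIT5, -0.14 to 0.39 for IFITM2, -0.25 to 0.40 for IFITM3, -0.26 to 0.23 for OASL, -0.10 to 0.090 for MX1, -0.025 to 0.58 for ISG15 and -0.23 to 0.098 for IFI44. The cause of these changes of sign was not tested. Depth limits the low genes, since vehicle replicate 3 gave 12 reads for IFI44, the fewest of any tested member.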
